A study of Homo sapiens with 63 samples.

Results

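The response of small cell lung cancer (SCLC) cells to veliparib alone was compared between cell lines marked sensitive in the study's supplementary drug table and the remaining lines. Its data were 18 of the 63 Illumina HT-12 v4 arrays of the study, the Con array and the A50 array of each of 9 lines. Con cells had received vehicle and A50 cells veliparib (ABT-888) at 50 µmol/L, with no cisplatin and no radiation, for 24 h by the study's methods. The sensitive group held 5 lines (H146, H187, H209, H526 and D153) and the insensitive group held 4 (H69, H128, D53 and D114), where D53, D114 and D153 are the lines called DMS53, DMS114 and DMS153 elsewhere. Of 47217 probes, those detected (p under 0.05) on 4 or more of the 18 arrays were kept, 25363 in all. The value compared was the log2 change of a line, its A50 signal minus its Con signal, and a sensitive minus insensitive difference is a difference of the mean changes of the groups in log2 units.

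The marks of the drug table stand for a strong drop in the IC50 of cisplatin, carboplatin or etoposide when veliparib was added. A sensitive line is thus one in which veliparib potentiated another drug, which is not the same as one that veliparib alone killed. The study reports limited activity of veliparib alone, modest in H187, H146 and D153 and mainly at higher concentrations. These lines are all in the sensitive group, so the groups were partly aligned with inhibition by veliparib alone. H209 did not have such a drop for cisplatin, and the text of the study names D114 rather than D153 among its sensitive lines. The labels give the lines of this comparison no sensitivity group and the treatment protocol in the labels gives a longer exposure than the methods, without saying which applied to the arrays. Every line and condition had 1 array, so the replicate was the cell line, and the spread within a group is a spread between different tumours. The sensitive group held 4 lines of the H series and 1 of the DMS series, and the insensitive group held 2 of each, so sensitivity and series were partly aligned. The methods also state that the short tandem repeat profile of H128 did not match its reference.

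Veliparib blocks the catalytic site of PARP1 and PARP2, nuclear enzymes that sense DNA strand breaks and attach chains of ADP-ribose to themselves, to histones and to repair factors. Those chains recruit the machinery of base excision and single-strand break repair, and an inhibited PARP can stay trapped on DNA and block replication forks. Breaks that reach the fork are repaired by homologous recombination and checkpoint kinases hold cells before mitosis meanwhile. SCLC is a neuroendocrine tumour that divides fast, in which the brake of RB1 on the cell cycle is usually lost and replication stress is high.

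Genes that fell in both groups included CENPA, the histone variant that marks centromeres, DLGAP5, a spindle protein, and KIF20A, a kinesin of cytokinesis. Genes of this class are transcribed late in the cell cycle, and their promoters often carry a cell cycle genes homology region (CHR), bound by the DREAM and MYB-MuvB complexes, and CCAAT boxes, bound by NF-Y. The promoters of these 3 genes are shown as examples of the mitosis genes with deep falls in both groups, and they were picked after their values were seen. Each runs from 250 bases before to 50 bases after the start of the gene, 5′ to 3′ on the strand of the gene, from RefSeq on GRCh38.p14, with the letters TTTGAA and TTCGAA, searched on both strands, in capitals. The positions are chr2:26785806-26786105 on the + strand for CENPA, chr14:55191536-55191835 on the - strand for DLGAP5 and chr5:138178862-138179161 on the + strand for KIF20A.
CENPA: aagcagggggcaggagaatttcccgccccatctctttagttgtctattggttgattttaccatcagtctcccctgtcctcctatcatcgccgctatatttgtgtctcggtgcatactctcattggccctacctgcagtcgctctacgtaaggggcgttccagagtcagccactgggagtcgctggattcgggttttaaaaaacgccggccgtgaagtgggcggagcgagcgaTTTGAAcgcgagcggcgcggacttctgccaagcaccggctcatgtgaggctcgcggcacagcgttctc
DLGAP5: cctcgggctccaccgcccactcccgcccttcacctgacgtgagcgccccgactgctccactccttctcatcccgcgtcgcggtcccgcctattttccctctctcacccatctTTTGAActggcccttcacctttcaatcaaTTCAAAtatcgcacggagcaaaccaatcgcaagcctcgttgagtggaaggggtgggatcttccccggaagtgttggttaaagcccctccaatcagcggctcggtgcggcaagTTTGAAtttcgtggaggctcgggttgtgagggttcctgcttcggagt
KIF20A: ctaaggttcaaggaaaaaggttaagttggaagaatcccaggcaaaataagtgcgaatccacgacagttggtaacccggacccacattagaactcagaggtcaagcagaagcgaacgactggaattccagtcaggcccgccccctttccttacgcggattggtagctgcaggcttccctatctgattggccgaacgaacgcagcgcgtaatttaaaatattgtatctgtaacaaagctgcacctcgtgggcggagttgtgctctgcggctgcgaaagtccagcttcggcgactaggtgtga
The CENPA window held 1 match to these letters, that of DLGAP5 held 3 and that of KIF20A held 0, and each of these windows held 2 matches to CCAAT on either strand. The window of CENPE, another mitosis gene described here, held 0 matches to either. Either CHR word was found in 16.6% of 27305 promoters of this length and in 40 of the 52 promoters found for the kept mitosis genes (76.9%). CCAAT was found in 35.7% of all promoters and in 43 of those 52 (82.7%). Of the 37 promoters found for splicing factor genes, 6 held a CHR word (16.2%), and of 39 for genes of the G1/S transition and DNA replication 3 did (7.69%). A match of letters is a description of the window and was not tested as a binding site.

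The arrays were even in quality, with 19124 to 22075 probes detected on each of the 18. Each of the 18 arrays correlated best with the other array of its own line. After the mean of each condition was removed, the arrays of a line correlated at r from 0.954 to 0.972, so the pairing by line held in the values. Of 26 neuroendocrine marker genes, 18 to 26 were detected in the sensitive group and 17 to 25 in the insensitive group, lowest in H128 (17), D114 (18) and H526 (18). D114 carried 14 of 20 fibroblast and mesenchymal markers, with a summed signal of 28026 against at most 3385 in any other line. Epithelial markers were fewer in H128 (3 of 16) and D114 (4 of 16) than in the sensitive group (8 to 9 of 16), and of 14 leucocyte markers 5 were detected on none of the arrays. The part of these differences between lines in the results was not tested.

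No gene passed the test for a difference in response between the sensitive and the insensitive lines. Of 25363 probes, 0 had an adjusted p under 0.05 for the difference by limma (0%), the lowest adjusted p was 0.949, and 927 had an unadjusted p under 0.05 (3.65%). The groups moved together instead. In the sensitive lines 542 probes rose (2.14%) and 715 fell (2.82%), and in the insensitive group 224 rose (0.883%) and 305 fell (1.2%). Of these, 138 rose in both groups, 218 fell in both and 0 went opposite ways. The 356 shared probes were 28.3% of the calls in the sensitive group and 67.3% of those in the insensitive group. A call made in 1 group and not in the other is not a difference between them, and 1218 of the 1257 probes called in the sensitive group (96.9%) had the same sign in the insensitive group, as had 525 of 529 (99.2%) the other way round. The median absolute change of the 1257 was 0.23 in the sensitive group, and in the same direction 0.18 in the insensitive group. Across all kept probes the mean changes of the groups correlated at r = 0.65, over probes of the same libraries, which are not independent. The median SE of a difference was 0.073, so that a difference had to reach about 0.15 to pass an unadjusted p of 0.05. The adjusted threshold asks for more, and the largest difference, -0.61 for TMEM267, did not pass it. The absence of calls therefore does not exclude differences well above 0.15. When arrays were scaled to equal medians instead of quantile normalized, 411 probes were called in the sensitive group, of which 0.973% were higher against 43.1% by the main normalization, and 0 in the insensitive group. That scaling moved the median over all probes by 0.058 downward in the sensitive group, and 7 of 9 lines had a lower raw median on the A50 array than on the Con array.

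**Figure D1:**
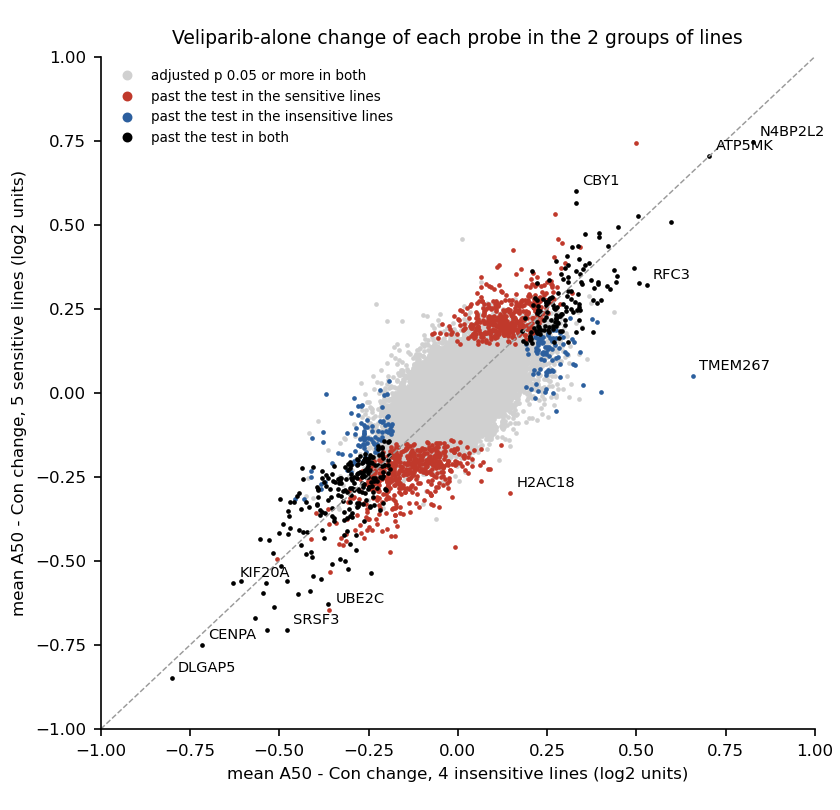
Each point is a probe, with its mean A50 minus Con change (log2 units) over the 4 insensitive lines on the x axis and over the 5 sensitive lines on the y axis. Colours mark probes past limma's adjusted p of 0.05 in the sensitive group, in the insensitive group or in both, and the dashed line is equality. The 356 probes called in both lie along the diagonal (138 higher, 218 lower), and TMEM267 lies farthest from it.

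Among the functional lists, that of mitosis held the most falls in both groups. Of 62 mitosis genes, all kept, 29 fell in the sensitive group, 24 fell in the insensitive group and 0 rose in either. Over all 13622 genes, each by its brightest probe as in the lists, 3.53% fell and 2.52% rose in the sensitive group and 1.48% fell and 1.14% rose in the insensitive group. The mitosis genes had a median change of -0.25 and -0.30 against -0.00036 and 0.00080 over all probes. CENPA signal was 8.91, 9.35, 9.39, 9.16 and 9.67 log2 units on the Con arrays of H146, H187, H209, H526 and D153, and 8.14, 8.64, 8.65, 8.68 and 8.62 on their A50 arrays. In H69, H128, D53 and D114 it went from 9.24, 9.01, 8.78 and 9.47 to 8.67, 8.42, 7.52 and 9.02. It was lower on the A50 array in each of the 9 lines, and the 2 largest falls were in D53, an insensitive line, and D153, a sensitive one. The mean CENPA change was -0.75 (SE 0.093, limma adjusted p = 0.000613) in the sensitive group, which leaves 59.4% of the Con signal, and -0.72 (SE 0.10, adjusted p = 0.00434) in the insensitive group, which leaves 60.8%. The difference between the groups was -0.03 (95% interval -0.33 to 0.26). In bulk RNA, fewer cells in mitosis and less of these transcripts per cell cannot be told apart.

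DLGAP5 changed by -0.41, -0.79, -1.07, -0.83 and -1.14 in H146, H187, H209, H526 and D153, and by -0.70, -0.45, -1.36 and -0.70 in H69, H128, D53 and D114. The ranges of the groups overlapped throughout, the means were -0.85 and -0.80, and a second DLGAP5 probe changed by -0.56 and -0.61. KIF20A, which moves the passenger complex at cytokinesis, had means of -0.57 and -0.63, from -0.16 in D114 to -1.40 in D53. AURKA, a kinase of spindle assembly, had means of -0.42 and -0.48 and likewise ran from -0.03 in H526 to -0.95 in D53. FAM83D, which recruits casein kinase to the spindle, changed by -0.52 and -0.50, and CENPE, the kinesin of the kinetochore, by -0.42 and -0.50. These genes passed the test in both groups on the probes given. A brighter CENPE probe changed by -0.49 and -0.51 and did not pass in the insensitive group (adjusted p = 0.0671), and a second CENPA probe changed by -0.32 and -0.31 and likewise passed in the sensitive group alone. Cyclins and mitotic regulators of the same list fell too. CCNB2 changed by -0.49 and -0.41, CDC20, the activator of the anaphase-promoting complex, by -0.41 and -0.44, CENPF by -0.45 and -0.44, and PLK1 by -0.31 and -0.39, each past the test in both groups. UBE2C, the ubiquitin carrier of the anaphase-promoting complex, changed on its brighter probe by -0.39 (adjusted p = 0.0194) in the sensitive group and by -0.34 (adjusted p = 0.0873) in the insensitive group, with a difference of -0.04. A dimmer UBE2C probe changed by -0.64 (adjusted p = 0.00116) and -0.36 (adjusted p = 0.0786), and its difference of -0.28 had an interval of -0.57 to 0.00 and did not pass. FAM72B, 1 of several near-identical FAM72 copies whose signals can mix, changed by -0.63 and -0.36.

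The depth of the mitosis fall varied widely between the lines of each group. The median change over the 62 genes was -0.28 in H146, -0.06 in H187, -0.32 in H209, -0.20 in H526 and -0.41 in D153. In the insensitive lines it was -0.09 in H69, -0.25 in H128, -0.61 in D53 and -0.22 in D114. The deepest and the second shallowest of the 9 medians both belonged to insensitive lines. The counts changed when a line was left out, which also leaves fewer lines for the test. In the insensitive group the 24 falls became 3 without D53, 10 without H128, 12 without H69 and 13 without D114. The insensitive median was then -0.20, -0.30, -0.35 and -0.32, so it was shallower without D53 alone. In the sensitive group the 29 became 9 without D153, 10 without H209, 18 without H146, 19 without H526 and 28 without H187. With arrays scaled to equal medians 13 fell in the sensitive group and 0 in the insensitive group. The median difference between the groups was 0.04 as measured and turned to -0.058 without D53 and to -0.045 with that scaling.

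Splicing factors held the second highest number of falls. Of 41 such genes 12 fell and 2 rose in the sensitive group, and 7 fell and 1 rose in the insensitive group (against 3.53% and 2.52% of all genes in the former and 1.48% and 1.14% in the latter). The 7 falls became 2 without H69 and 4 without D53, and with equal medians 9 fell in the sensitive group and 0 in the insensitive group. SRSF3, which promotes exon inclusion and limits its own level through a poison exon, stood at 9.74, 9.94, 10.17, 10.06 and 9.46 on the Con arrays of H146, H187, H209, H526 and D153, and at 9.18, 9.05, 9.47, 9.07 and 9.06 on their A50 arrays. In H69, H128, D53 and D114 it went from 9.90, 10.34, 9.19 and 9.77 to 9.38, 10.08, 8.60 and 9.22. All lines fell, H526 (-0.99) and H187 (-0.89) furthest and H128 (-0.26) least, and the ranges overlapped. The means were -0.71 (SE 0.072, adjusted p = 0.000113) and -0.48 (SE 0.080, adjusted p = 0.0101), and the difference of -0.23 had an interval of -0.46 to 0.00. RBMX, an RNA-binding protein encoded on the X chromosome, changed by -0.71 and -0.53, with -1.17 in H187 as the deepest. SRSF7 changed by -0.64 and -0.51 and HNRNPH3 by -0.60 and -0.45, and HNRNPC, SRSF1 and SRSF6 also fell in both groups, though a second HNRNPC probe changed by -0.07 and -0.09 and did not pass. HNRNPDL rose in both on its brighter probe, by 0.43 and 0.32, and fell in both on a dimmer one, by -0.55 and -0.40. Other genes that fell in both groups were GNA12, a G protein subunit (-0.47 and -0.41), MSI2, an RNA-binding translational regulator (-0.59 and -0.42), HACL1, a peroxisomal lyase (-0.51 and -0.35), and PPP2CA, the catalytic subunit of protein phosphatase 2A (-0.32 and -0.50). These falls were on the named probe, and other well detected probes of 3 of them did not fall. They changed by 0.06 and 0.00 for PPP2CA, where that probe was the brighter, by 0.08 and 0.02 for MSI2 and by 0.09 and -0.10 for GNA12. The study itself gave a list of genes from cells before and after exposure to cisplatin and veliparib, which it does not describe as veliparib alone. Of its 18 genes matched here, 14 fell and 2 rose in the sensitive group and 13 fell and 2 rose in the insensitive group. That list was chosen on the same lines, with untreated cells as the control, and is not independent evidence of a direction.

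The rises were shared as well. N4BP2L2, a gene of little known function, rose by 0.39, 0.71, 0.72, 0.81 and 1.09 in H146, H187, H209, H526 and D153, and by 0.89, 0.50, 0.93 and 0.99 in H69, H128, D53 and D114. Its means were 0.75 (SE 0.081) and 0.83 (SE 0.090), a signal of 168% and 177% of Con, but its probes did not all move alike. A second probe rose by 0.51 and 0.60, and another changed by -0.24 and -0.22, past the test in the sensitive group. ATP5MK, a small subunit of the mitochondrial ATP synthase, had means of 0.70 and 0.70, with the lowest change in H69 (0.18) and the highest in D114 (1.34), both insensitive. SLC33A2, a transporter-like membrane protein, rose by 0.53 and 0.50, and TTC13 by 0.48 and 0.40. FEN1, the flap endonuclease of Okazaki fragments and long-patch base excision repair, rose by 0.29, 0.53, 0.33, 0.25 and 0.44 in the sensitive group and by 0.40, 0.16, 0.33 and 0.51 in H69, H128, D53 and D114. Its means were 0.37 (SE 0.053) and 0.35 (SE 0.059), with a difference of 0.02 (95% interval -0.15 to 0.19). POLR1D, a subunit of RNA polymerases I and III, RFC3, a subunit of the clamp loader, CSTF3, of the cleavage stimulation factor, and the small ribosomal protein gene RPS29 rose on the named probe in both groups, by 0.32 to 0.53. For RFC3, POLR1D and RPS29 the named probe was dimmer than the other probes of the gene. The other RFC3 probes changed by -0.17 and -0.41 in the sensitive group and by -0.09 and -0.21 in the insensitive group. That of POLR1D changed by -0.20 and -0.12. Other probes of RPS29 were near 0, and those of CSTF3 ran from -0.08 to 0.20.

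**Figure D2:**
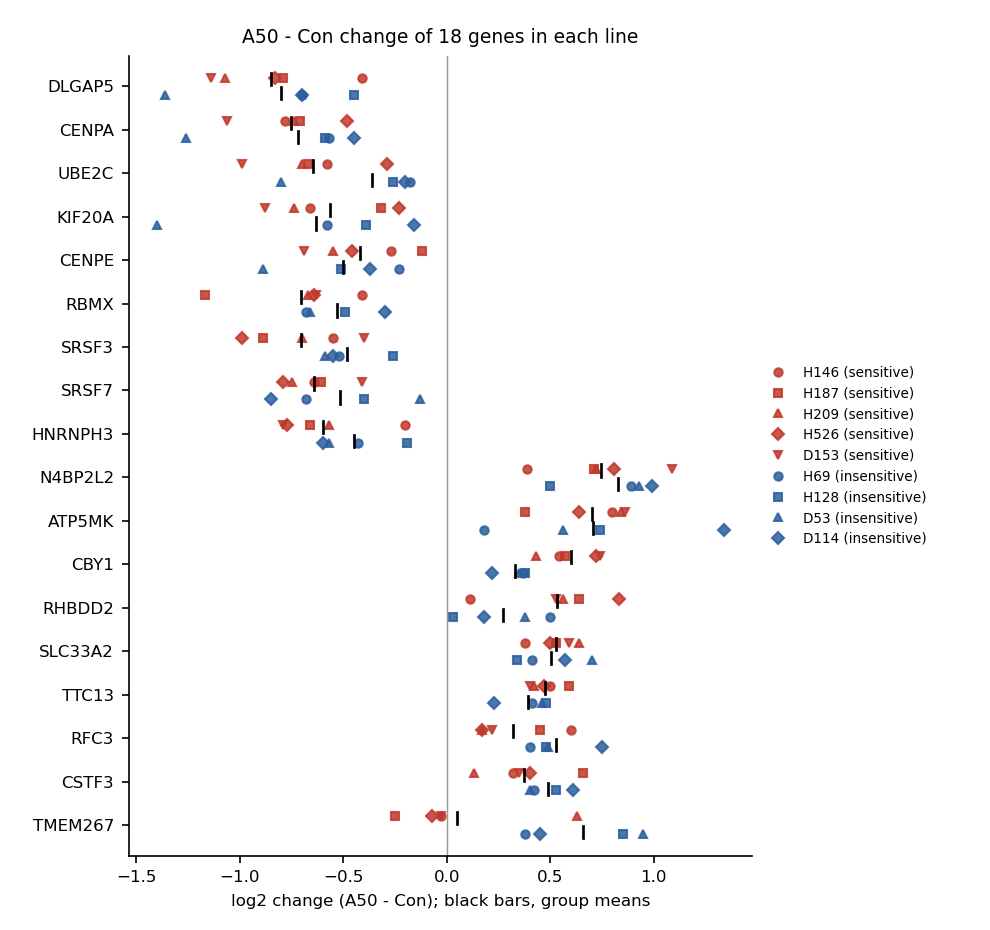
Each row is a gene and each symbol a cell line, with the log2 change A50 minus Con on the x axis, the 5 sensitive lines in red above the 4 insensitive lines in blue, and black bars for the group means. For CENPA, DLGAP5, SRSF3 and N4BP2L2 all 9 lines lie on one side of 0 and the groups overlap, and for TMEM267 4 of the 5 sensitive lines lie at or below 0.

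The largest gap between group means belonged to TMEM267, a membrane protein of unknown function. It changed by -0.03, -0.25, 0.63, -0.07 and -0.03 in H146, H187, H209, H526 and D153 and by 0.38, 0.85, 0.95 and 0.45 in H69, H128, D53 and D114. All insensitive lines rose, while among the sensitive lines H209 alone did, to within the insensitive range. The means were 0.05 (adjusted p = 0.876) and 0.66 (adjusted p = 0.0113), and the difference was -0.61 (SE 0.15, 95% interval -0.93 to -0.28), with an adjusted p of 1.0 by limma. A second TMEM267 probe had means of 0.06 and 0.05. CBY1, an antagonist of beta-catenin that also builds cilia, rose in every line, by 0.43 to 0.74 in the sensitive group and by 0.22 to 0.38 in the insensitive group. These ranges did not touch. Its difference was 0.27 (95% interval 0.11 to 0.42) and did not pass after adjustment.

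At 325 probes (1.28%) the changes of the 5 sensitive lines and those of the 4 insensitive lines did not overlap, 155 with the sensitive lines higher and 170 with them lower. Of these, 16 genes are named for having the lowest p in each direction, which makes their differences a description. Higher in the sensitive lines were ARF3, ATAD2B, SRSF10, CBY1, MTMR7, ZP3, SNX30 and NEK6. Lower in them were HNRNPA1P33, H2AC18, UNC45A, TMEM125, ACSS2, CCND2, EFNB2 and UAP1. ARF3, a small GTPase of Golgi traffic, changed by 0.05, 0.13, 0.18, 0.26 and 0.02 in the sensitive group and by -0.24, -0.12, -0.15 and -0.16 in H69, H128, D53 and D114. It went up in all of the former and down in all of the latter, with a difference of 0.29 (95% interval 0.15 to 0.43). H2AC18, a replication-dependent histone gene, changed by -0.21, -0.27, -0.32, -0.34 and -0.35 in the sensitive group and by -0.09, 0.23, 0.06 and 0.39 in the insensitive group. All sensitive lines lay below all insensitive ones, with a difference of -0.44 (95% interval -0.62 to -0.27). The probe of its near-identical copy H2AC19 had a difference of -0.17. HNRNPA1P33, a pseudogene that resembles the splicing factor gene HNRNPA1, had a difference of -0.45, and its signal cannot be told apart from that of its relatives. ACSS2, which makes acetyl-CoA from acetate, differed by -0.28, EFNB2, an ephrin ligand, by -0.27, UNC45A, a myosin chaperone, by -0.31 on the named probe and UAP1, an enzyme of UDP-N-acetylglucosamine synthesis, by -0.26. CCND2, a D-type cyclin, differed by -0.33 but was detected on 7 of the 18 arrays. Other probes of some of these genes had smaller gaps. They differed by -0.03 and 0.13 for UNC45A, by -0.13 for a brighter probe of H2AC18, by -0.02 and 0.03 for dim probes of CBY1 and by 0.01 and -0.08 for ZP3.

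The same dose of veliparib was also given on top of cisplatin, at the concentration set for each line, and the change from C+0 to C+50 uses 18 other arrays of the same lines. There the groups differed at 0 of 25363 probes after adjustment (0%, lowest adjusted p 0.981 by limma, 1216 at an unadjusted p under 0.05). Of the 16 genes, 11 had a difference of the same sign there, 2 had an unadjusted p under 0.05, and for 1, ARF3, the groups again did not overlap. The ARF3 difference was 0.24 on cisplatin, close to the 0.29 without it, and that of EFNB2 was -0.25 against -0.27. The median difference over the 8 genes higher in the sensitive group was 0.24 where they were chosen and 0.058 on cisplatin, and over the 8 lower genes -0.30 and -0.085. On cisplatin the difference of H2AC18 was -0.13, that of HNRNPA1P33 0.02 and that of CBY1 0.08. Of all 325 probes, 6 did not overlap in the same direction on cisplatin and 1 did so in the opposite direction. Across all probes the differences of both settings correlated at r = 0.197 (Spearman 0.178). With arrays scaled to equal medians the groups of 4 of the 16 genes still did not overlap, and 115 of the 325 probes were kept among 251.

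**Figure D3:**
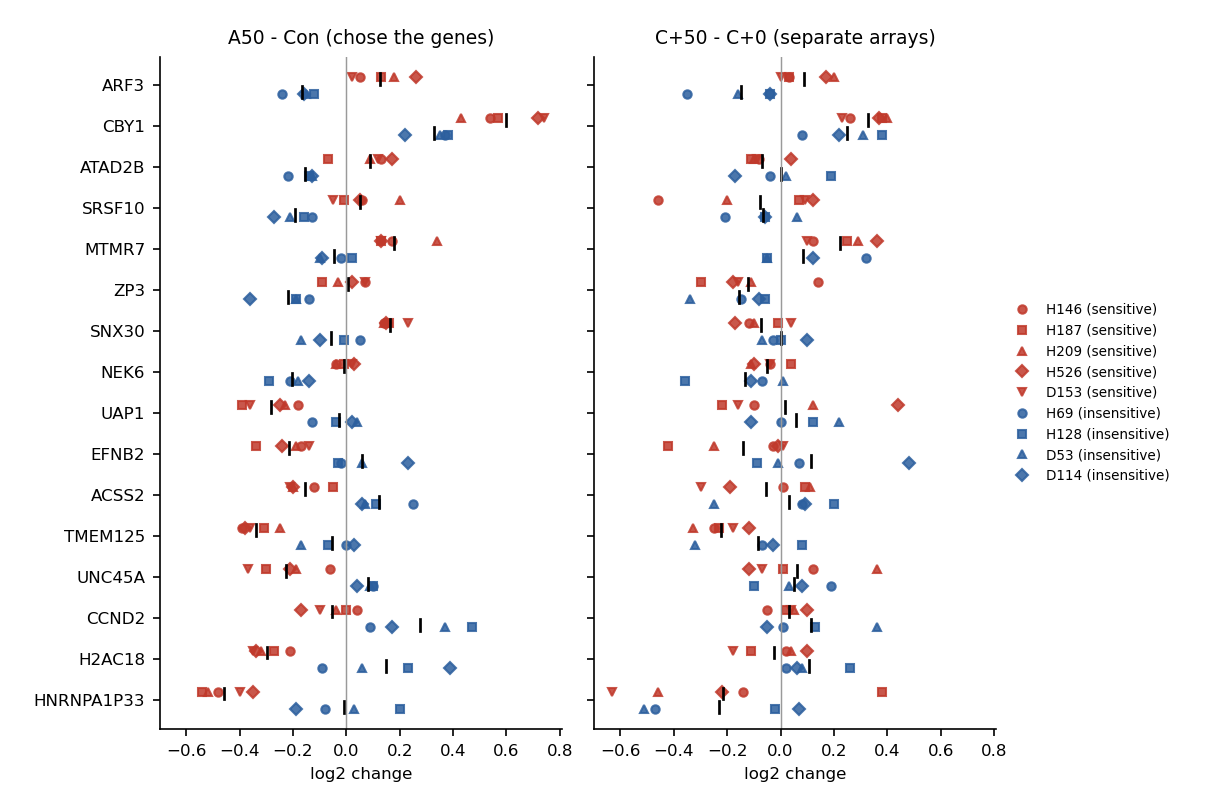
The 16 genes chosen for non-overlapping A50 minus Con changes (left panel, log2 change on the x axis) and the same genes in C+50 minus C+0 on separate arrays of the same lines (right panel). Red symbols are sensitive lines, blue symbols insensitive lines and black bars group means, and in the right panel the colours are apart for ARF3 alone.

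The genes of the G1/S transition and of DNA replication that passed the test were mostly higher. In the insensitive group 1 of 45 kept genes rose, against 1.14% of all genes. In the sensitive group 5 rose and 1 fell, against 2.52% and 3.53% of all genes. The risers were MCM5, a subunit of the replicative helicase, RFC5, of the clamp loader, the histone chaperone ASF1B, the kinase CDK2 and the transcription factor E2F2, and the gene that fell was POLE2, of DNA polymerase epsilon. In the insensitive lines the riser was ORC1, of the origin recognition complex, at 0.24. MCM5 changed by -0.03, 0.32, 0.48, 0.44 and 0.68 in H146, H187, H209, H526 and D153 and by 0.23, 0.00, 0.29 and -0.05 in H69, H128, D53 and D114. H209, H526 and D153 lay above all insensitive lines, while H146 lay among them. The means were 0.38 (adjusted p = 0.0117) and 0.12 (adjusted p = 0.602), and the MCM5 difference was 0.26 (95% interval 0.02 to 0.51) without cisplatin and 0.24 on cisplatin, neither past the adjusted threshold. The median change of the list ran from 0.037 to 0.141 in the sensitive group and from -0.010 to 0.074 in the insensitive group. The median difference was 0.097 without cisplatin and 0.083 on cisplatin. In both, 31 of the 45 genes (68.9%) were higher in the sensitive group, against 27.8% of all probes. The latter share counts every kept probe, while the list holds 1 probe per gene, so the shares are not on a like base. With arrays scaled to equal medians the median difference was -0.0031, and the medians of the groups turned to -0.038 and -0.040. The 5 risers of the sensitive group became 1 without D153, 2 without H209, 3 without H526 and 8 without D53, and 0 rose with that scaling.

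PARP1 and PARP2, the targets of the drug, changed little, and the lists of repair genes around them gave a few calls each. PARP1 changed by -0.16, 0.09, 0.05, -0.05 and -0.10 in the sensitive group and by -0.07, -0.08, -0.12 and 0.03 in the insensitive group. The signs were mixed in both groups, and the difference was 0.02 (95% interval -0.12 to 0.17). PARP2 had means of 0.03 and 0.02 and PARG, which removes the chains, -0.02 and 0.02. SLFN11, a helicase-like protein whose loss is known to make cells tolerate PARP inhibitors, had means of -0.08 and -0.06. A second SLFN11 probe, detected on 15 of the 18 arrays, changed by -0.08 and 0.13, a difference of -0.22. XRCC1, the scaffold of single-strand break repair, had means of 0.15 and 0.18 and PRKDC, the catalytic subunit of DNA-dependent protein kinase, 0.09 and -0.03. None of these 6 genes passed the test in either group. Of 20 PARP family genes 2 rose in the sensitive group (MACROD1 by 0.19 and PARP6 by 0.27) and 1 in the insensitive group. PARP12, an interferon-inducible member, was lower in the sensitive group by 0.20 without cisplatin and by 0.16 on cisplatin, neither past the adjusted threshold. In base excision and single-strand break repair, 2 of 20 rose in the sensitive group (FEN1 and LIG1) and 1 in the insensitive group, with 0 falls. In homologous recombination and the Fanconi pathway 3 of 35 rose (FANCE, PSMC3IP and RMI2) and 4 fell (NBN, RAD51AP1, RAD51C and SWI5) in the sensitive group, against 1 and 1 in the insensitive group. Over all genes 2.52% rose and 3.53% fell in the sensitive group and 1.14% and 1.48% in the insensitive group. The shares of the recombination list were above these, but the counts of these short repair lists rest on a few genes each. NBN, of the complex that senses double-strand breaks, fell in both on its brighter probe, with means of -0.35 and -0.39. SWI5, a partner of the recombinase, had means of -0.27 and -0.03, and its difference of -0.24 (95% interval -0.40 to -0.07) did not pass after adjustment and stood at -0.00 on cisplatin. In end joining 1 of 14 rose in the sensitive group, in checkpoint and fork protection 2 of 26 rose and 1 fell there, and 2 of 17 genes tied to the response to PARP inhibitors, DYNLL1 and RNASEH2B, fell there. For the checkpoint genes the counts in the insensitive group were 1 and 1, and for the other 2 lists 0.

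Most stress and death lists gave few calls, but with veliparib alone heat shock and unfolded protein response genes fell more often than genes in general. Of all 13622 genes, 3.53% fell and 2.52% rose in the sensitive group, and 1.48% fell and 1.14% rose in the insensitive group. The counts of these short lists rest on a few genes each. Of 28 targets of the p53 pathway 1 rose in the sensitive group and 1 fell in the insensitive group, and CDKN1A, the cyclin-dependent kinase inhibitor p21, had means of 0.06 and -0.03. Of 23 genes of the BCL2 family and caspases 0 were called in either group. In the unfolded protein response 3 of 33 fell in each group, ATF5 and DDIT3 in both. ATF3, a stress-induced transcription factor, changed by -0.06, -0.04, 0.38, 0.04 and 0.41 in the sensitive group and by -0.38, -0.12, -0.10 and -0.09 in the insensitive group. The ranges did not overlap, but the lowest sensitive and the highest insensitive value lay close, at -0.06 and -0.09. The difference of 0.31 did not pass after adjustment. Of 21 heat shock genes 4 fell in the sensitive group (HSPA1A, HSPB1, HSPH1 and CHORDC1) and 1 in the insensitive group, HSPA1A, at -0.35 and -0.44. From C+0 to C+50, 4 of these 21 fell in the sensitive group and 1 in the insensitive group. Of the 33 unfolded protein response genes 1 fell in each group there, against 923 and 375 of all 25363 probes. Of 37 interferon-stimulated genes 1, HERC5, fell in the sensitive group, and of 31 replication-dependent histone genes 1, H2BC5, rose there.

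Metallothioneins, which bind zinc and copper, were led by a single line. Of 8 kept genes 2 fell in the sensitive group and 0 in the insensitive group, with median changes of -0.19 and -0.10. Among all genes 3.53% fell in the sensitive group and 1.48% in the insensitive group. MT1X changed by -0.06, -0.36, -0.53, -0.26 and -0.93 in H146, H187, H209, H526 and D153, and by -0.18, -0.11, -0.37 and -0.06 in the insensitive group. D153 was lowest, and the median difference of the list went from -0.14 to -0.0033 without it. Genes of cholesterol synthesis and uptake had median changes of -0.010 in the sensitive and 0.10 in the insensitive group, with 1 of 20 called in the former and 0 in the latter, and their median difference was -0.073 without cisplatin and -0.093 on cisplatin. For 71 genes of oxidative phosphorylation the median difference was -0.024 without cisplatin and -0.037 on cisplatin. In both, 38 (53.5%) were lower in the sensitive group, against 27.9% of all probes, a share over every kept probe and not 1 probe per gene. Of the members of these lists 0 passed the test for a difference.

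**Figure D4:**
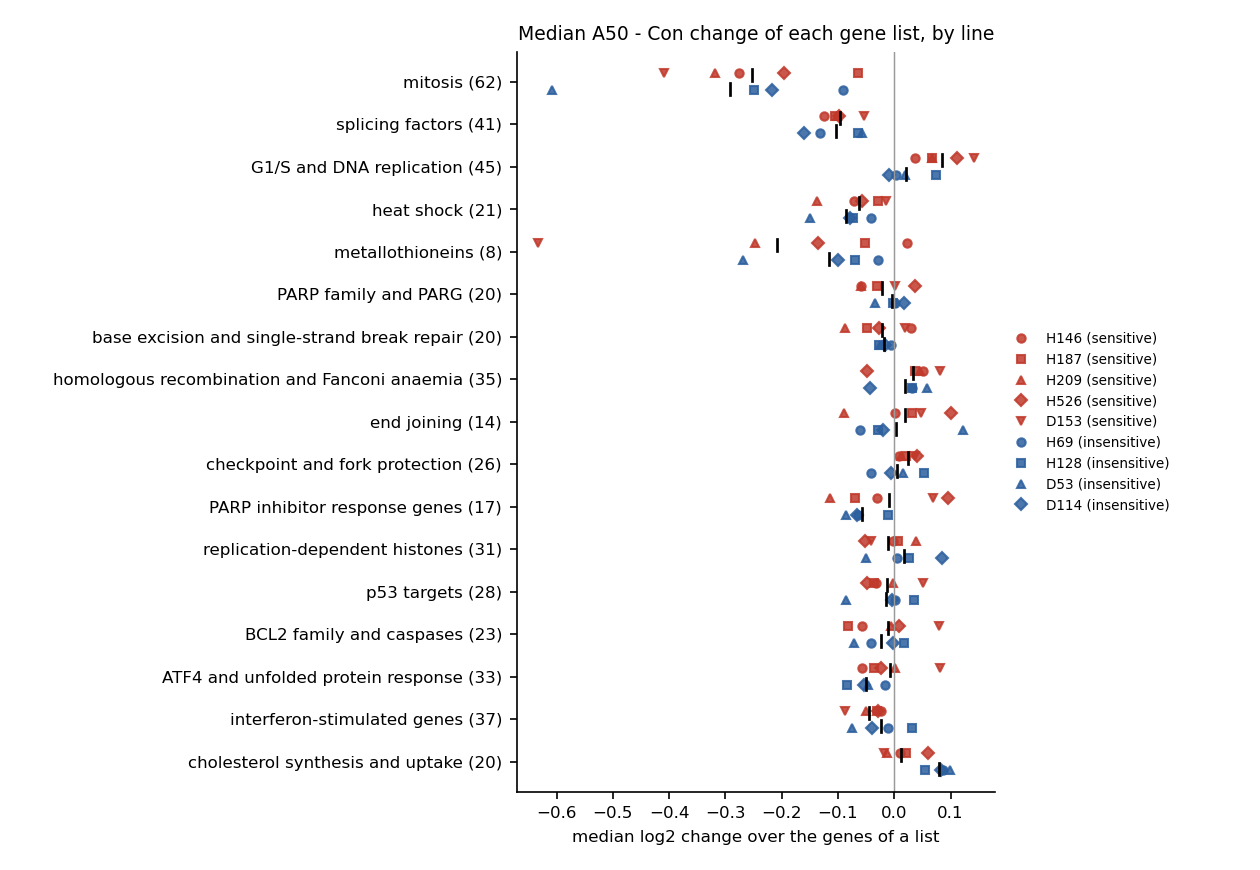
Rows are gene lists with the number of kept genes, symbols are cell lines, and the x axis is the median A50 minus Con change of the list in that line (log2 units). Sensitive lines (red) stand above insensitive lines (blue), and black bars are the means of the line medians. The mitosis medians run from -0.06 in H187 to -0.61 in D53, the lowest metallothionein value is that of D153, and most other lists lie near 0 in all lines.

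By the size of the change over all probes, the groups did not differ detectably with veliparib alone. The root mean square of the log2 change over all kept probes was 0.125 in H146, 0.139 in H187, 0.150 in H209, 0.149 in H526 and 0.146 in D153, and 0.129 in H69, 0.122 in H128, 0.182 in D53 and 0.152 in D114. The insensitive lines included both the smallest and the largest value. The means were 0.142 ± 0.0104 (SD, n = 5) and 0.146 ± 0.0267 (SD, n = 4), a gap smaller than the spread within either group, with p = 0.762 by an exact two-sided permutation test whose smallest possible p is 0.00794. Lines were about as alike across the groups as within them. The mean correlation of changes was 0.287 over the 10 pairs of sensitive lines (0.177 to 0.397), 0.210 over the 6 pairs of insensitive lines (0.137 to 0.253) and 0.272 over the 20 pairs across groups (0.135 to 0.419). These correlations are over probes that share the arrays of a line. The first axis of variation between the 9 profiles, 22.1% of their variance, set D53 (0.77) against D114 (-0.47), both insensitive, with H146 at -0.33 and D153 at 0.22. The second, 14.9%, set H526 (0.58) and H209 (0.50) against D53 (-0.37) and H128 (-0.33).

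What was particular to a line could be looked for again on the cisplatin arrays. The change of each line minus the mean of the other 8 was correlated, over the 25363 probes, with the same quantity for C+50 minus C+0. The correlation was 0.452 in D53, 0.244 in H187, 0.240 in D114, 0.213 in D153, 0.186 in H69 and 0.172 in H128. It was 0.0878 in H209, 0.00538 in H146 and -0.0166 in H526. In 7 of 9 lines, all but H146 and H526, the best match of a line was the line itself.

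D53 had the most changes of its own. It rose past 1.5-fold (0.58 log2 units) at 167 probes, against 59 in H209, 44 in D114, 25 in D153, 24 in H187 and at most 11 in each of the other lines. At 50 probes D53 lay at least 0.5 above all other lines and at 5 at least 0.5 below, while D114 did so at 3 and 16 and no other line at more than 3 and 2. The D53 median over those 50 probes, which were chosen for it, was 0.83, and on the separate cisplatin arrays 0.43, where D53 was again highest at 41 of them. They included ZNF692, a zinc finger protein (1.09 and 0.49), JAG2, a Notch ligand (0.84 and 0.62) and AHR, the aryl hydrocarbon receptor (0.84 and 0.28), where the second value is the change on cisplatin. For AHR D53 was not highest on cisplatin, where another line rose by 0.40. NPIPB5 and NPIPB3, from a family of near-identical copies, rose by 1.40 and 1.11 in D53. Below all other lines lay KIF20A, at -1.40 in D53 against -0.88 at the lowest elsewhere. On cisplatin KIF20A was at -0.39 in D53 and at -0.67 at the lowest elsewhere, so D53 was not lowest there.

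**Figure D5:**
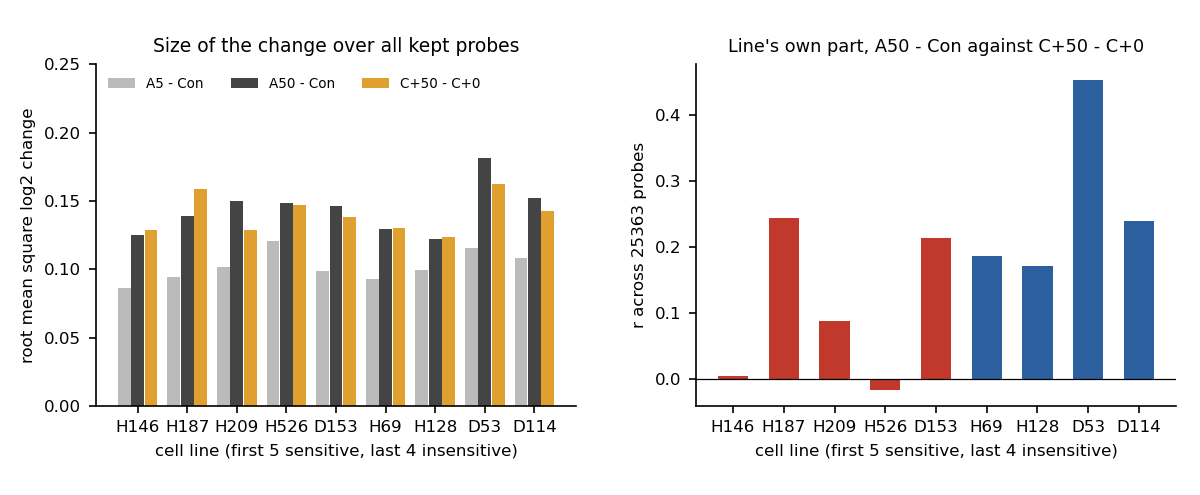
Left, the root mean square log2 change of each line over all kept probes for A5 minus Con (grey), A50 minus Con (black) and C+50 minus C+0 (orange). Right, the correlation across 25363 probes between the part of the A50 change particular to a line (its change minus the mean of the other 8) and the same part of C+50 minus C+0, red for sensitive and blue for insensitive lines, highest in D53 (0.452) and near 0 in H146 and H526.

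On cisplatin, veliparib at 50 µmol/L was tested against C+0 over the 25363 kept probes. It called 790 higher and 923 lower in the sensitive group and 290 and 375 in the insensitive group. Of the 62 mitosis genes 20 fell there in the sensitive group and 9 in the insensitive group, with median changes of -0.13 and -0.090. The size of the change was 0.140 in both groups (exact two-sided permutation p = 0.952).

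At 5 µmol/L veliparib called 0 probes in either group by limma, with 1506 at an unadjusted p under 0.05 in the sensitive and 1673 in the insensitive group. These changes use the same Con arrays as the A50 changes. Mean sizes were 0.10 in both groups (exact two-sided permutation p = 0.635). The difference between the groups passed at 1 probe (0.00394%), that of EXOSC8, a subunit of the RNA exosome. EXOSC8 changed by -0.10, -0.36, -0.24, -0.38 and -0.00 in H146, H187, H209, H526 and D153 and by 0.47, 0.43, 0.21 and 0.24 in H69, H128, D53 and D114. All sensitive lines lay at or below 0 and all insensitive lines above, with a difference of -0.55 (SE 0.078, adjusted p = 0.0181). At 50 µmol/L the EXOSC8 difference was -0.15 and did not pass. The call at 5 µmol/L was also lost without H69, H128, H187 or H209. CENPA had mean changes of -0.20 and -0.20 at 5 µmol/L against -0.75 and -0.72 at 50 µmol/L.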

How the data were processed

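The authors hybridised total RNA to Illumina HT-12 v4 arrays, scanned them on a HiScan and read them in GenomeStudio 2010.3. They deposited probe signals as linear intensity before and after the authors' quantile normalization, and the deposited p-value is the detection p against negative controls. Here signals before normalization were quantile normalized over the 63 arrays in limma 3.58.1 (R 4.3.3) and log2 transformed, with no background correction; they differed from the authors' normalized log2 values by at most 0.0151.

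The paired changes were fitted with lmFit and eBayes, 1 mean per sensitivity group and their contrast, with a Benjamini-Hochberg adjusted p under 0.05 over the 25363 kept probes. Symbols came from the platform annotation: 18618 kept probes had 1 symbol, 3 had several and 6742 none used here. Lists used the probe of highest mean signal per gene. The members, lists and tests were chosen with earlier results of these data known. Named genes were the 8 largest rises and falls called in each group and alike in all its lines, the 8 lowest p in each direction among non-overlapping probes, genes of the study's own list, the 2 members of each list with the largest difference, and 10 genes fixed by name; EXOSC8, the genes of D53 and further called list members were chosen after their values were seen. A few genes are not reported here. The script was tested on simulated data. Interval levels are 95%. Arrays are not counts, so the number of lines limits precision. Nothing states that lines were grown in separate batches, and array positions were not used as a block. Alternatives tried were other normalizations, filters, sensitive sets, lines, variance models and fits.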

Additional observations from a re-analysis of the deposited data

Results flagged for a closer look

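Over 66 named genes and 28 lists, 190 groups of 4 or 5 lines were examined for a line set apart from the rest of its group in the A50 minus Con change, and 11 were found; chance sets apart about 5% of groups. Each value below is the log2 change of the line that stood apart.

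H209 stood above the other sensitive lines for TMEM267 (0.634) and for MTMR7, a lipid phosphatase (0.336), and below them for XRCC1 (-0.174). D153 stood above them for SNX30, a sorting nexin (0.235), and H146 below them for CDKN1A (-0.271). Among the insensitive lines, H69 stood apart for ATF3 (-0.377), ATAD2B, a bromodomain protein (-0.224), and TIPARP, a mono-ADP-ribosyltransferase induced by the aryl hydrocarbon receptor (0.284). H128 stood apart for ISG15, an interferon-induced ubiquitin-like protein, at 0.126. D53 stood below the other insensitive lines for the dimmer probe of UBE2C (-0.799) and for the median of the 18 genes matched here from the study's own list (-0.628). The causes were not tested.

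The response to 5 µmol/L differed between the groups by the test of the difference itself at EXOSC8, by -0.553 on the log2 scale.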

How the results depend on the processing

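The difference between the groups stayed at 0 probes under every other normalization, filter, sensitive set, line set, variance model and fit tried, with a lowest adjusted p from 0.0729 (lines sensitive by cisplatin IC50) upward; the cause of the changes in other counts was not tested. With neqc background correction 467 probes were called in the sensitive group, 103 in the insensitive group and 0 for the 5 µmol/L difference. With equal medians these counts were 411, 0 and 0, and with all 63 arrays in 1 fit 2108, 1236 and 0. With the sensitive lines named in the study's text, 864 were called in the insensitive group and 0 for 5 µmol/L. With those sensitive by cisplatin IC50, 692, 978 and 0 were called, and with those inhibited by veliparib alone 280, 1519 and 0. In the 6 H lines 8 were called in the insensitive group, which are then 2. Without moderated variances 121 and 0 were called in the sensitive and insensitive lines. Without the cell line as a replicate block 0 were called in the sensitive group, 0 in the insensitive group and 0 at 5 µmol/L. By the methods' thresholds, an unadjusted p under 0.01 and a 1.5-fold change, 15 passed in the sensitive and 8 in the insensitive group, and 1 each for the difference without and on cisplatin. Leaving out 1 line gave 486 (without D153) to 1582 (without D53) calls in the sensitive group, with 617 without H187, 610 without H209 and 557 without H526. In the insensitive lines it gave 122 (without D53) to 476 (without H146), with 127 without H69, 328 without H128 and 218 without D114. For 5 µmol/L it gave 0 to 2, the 2 without D153. The mean of all RFC3 probes changed by -0.0856 in the sensitive group, against a rise on the named probe, whose other probes differ. Of 990 values of group changes of named genes under other normalizations and probe means, 866 kept their call and direction, 112 lost it, 11 gained it and 1 reversed; with a line left out, 1638 of 1782 kept it. With 5 and 4 lines, differences under about 0.15 did not reach even an unadjusted p of 0.05 by limma at the median SE. After adjustment differences as large as -0.61 (TMEM267) did not pass. Dim probes near background understate changes.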

Other observations

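Other lists gave few calls with 50 µmol/L veliparib alone. The shares over all genes were 2.52% higher and 3.53% lower in the sensitive group, and 1.14% and 1.48% in the insensitive group. Of 60 cytosolic ribosomal protein genes 1 rose and 2 fell in the sensitive group and 1 rose in the insensitive group. Of 23 oxidative stress genes of the NRF2 pathway 1 rose in the sensitive group, and of 25 immediate early genes 1 fell in each group. Of 26 neuroendocrine markers 1 fell in the sensitive group and 0 were called in the insensitive group, with median changes of 0.017 and 0.027. Of 13 kept mesenchymal and 7 kept leucocyte markers 0 were called, and of 9 epithelial markers 1 rose in the sensitive group.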
